A study of Homo sapiens with 8 samples.

Results

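The genes described here encode the proteins of the mitochondrial ribosome. They were the protein-coding genes of the deposited table whose symbol starts with MRPL or MRPS and a number. The rule found 78 genes among 58735 in the table, of which 19951 are protein-coding. By their symbols 29 belong to the small subunit (MRPS) and 49 to the large subunit (MRPL). Poly(A) RNA was sequenced from HepG2, an established human hepatocellular carcinoma line, in 4 control libraries and 4 DNMT3A libraries. The controls carried a control lentivirus (library names with pLV_EGFP_NC, genotype given as WT), and the others a lentivirus that overexpresses DNMT3A (library names with pLV_EGFP_DN), a de novo DNA methyltransferase. Both groups were therefore infected cells of 1 line. Whether replicates stem from separate infections or cultures, or from 1 clone, is not stated, so each p-value reflects spread among these libraries and possibly no more than technical spread.

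The mitochondrial ribosome translates the few proteins encoded by mitochondrial DNA, all of them core subunits of the respiratory chain and the ATP synthase. Its ribosomal RNAs come from mitochondrial DNA, while all its proteins are encoded in the nucleus, made in the cytosol and imported. Some of these proteins have counterparts in bacterial ribosomes and others arose in mitochondria. Hepatocytes are rich in mitochondria, and many of these genes start at CpG islands with short binding motifs for ETS factors, NRF1 or YY1.

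Values are FPKM, which correct read counts for the length of the gene and the size of the library. For the 78 genes this length counts all annotated exons, whichever transcript is made, so levels of different genes compare only roughly. Over the 75 genes with a mean of at least 1 FPKM, longer genes had lower levels (Spearman rho -0.43). A fold change is the mean log2(FPKM + 1) of the DNMT3A libraries minus that of the controls, given with its standard error (SE), and understates the change of low genes. A gene is said to have risen, fallen or been called where the limma test over all 11620 genes with a mean of at least 1 FPKM gave a Benjamini-Hochberg adjusted p under 0.05. The libraries held 15911019 to 17677093 recovered reads, and the 78 genes took 0.364% to 0.407% of them. The overexpressed gene DNMT3A was at 3.65 ± 0.178 FPKM (SD, n = 4) in the controls and 8.93 ± 1.33 FPKM (SD, n = 4) in the DNMT3A libraries, with no overlap. All 10 hepatocyte markers examined (among them ALB, APOA1 and HNF4A) were at 5.14 FPKM or more in every library, and 3 of them, FGB (log2 1.61), AFP (1.61) and TTR (1.38), were called higher with DNMT3A. Their part in the results below was not tested. Of 10 markers of blood, endothelial and fibroblast cells, 9 were below 1 FPKM in every library. Their summed level was 1.21 to 1.82 FPKM in the controls and 1.78 to 2.60 FPKM in the DNMT3A libraries.

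Promoter sequence is shown for the genes on which the results turn: MRPL52 and MRPL33, which were called higher, and MRPS2, MRPL57 and MRPL58, which were called lower. Each line gives 250 bases before and 20 bases from the RefSeq transcription start nearest to the deposited gene start (build GRCh38.p14), 5′ to 3′ on the gene's strand. Capitals mark matches, on either strand, to the ETS core CCGGAAG, the NRF1 core GCATGCGC and the YY1 core AAGATGGC. The windows lie at chr14:22829637-22829906 for MRPL52, chr2:27771469-27771738 for MRPL33, chr9:135499715-135499984 for MRPS2, chr13:21176408-21176677 for MRPL57 and chr17:75012420-75012689 for MRPL58, all on the plus strand.
MRPL52: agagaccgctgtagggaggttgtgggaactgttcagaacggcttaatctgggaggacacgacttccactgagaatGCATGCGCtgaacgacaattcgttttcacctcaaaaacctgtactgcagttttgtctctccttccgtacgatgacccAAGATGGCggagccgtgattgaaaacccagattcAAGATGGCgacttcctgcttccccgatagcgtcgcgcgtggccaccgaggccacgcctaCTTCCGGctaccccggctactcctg
MRPL33: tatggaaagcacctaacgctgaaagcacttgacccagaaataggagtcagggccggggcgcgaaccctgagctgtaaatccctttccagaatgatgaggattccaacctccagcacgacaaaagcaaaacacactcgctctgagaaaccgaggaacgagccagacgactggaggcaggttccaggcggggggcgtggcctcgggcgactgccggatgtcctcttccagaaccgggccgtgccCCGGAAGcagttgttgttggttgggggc
MRPS2: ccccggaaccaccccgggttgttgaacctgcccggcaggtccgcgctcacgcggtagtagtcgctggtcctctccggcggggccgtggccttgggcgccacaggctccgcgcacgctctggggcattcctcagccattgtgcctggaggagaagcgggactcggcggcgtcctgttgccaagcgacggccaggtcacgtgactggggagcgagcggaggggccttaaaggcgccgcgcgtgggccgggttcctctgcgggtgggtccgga
MRPL57: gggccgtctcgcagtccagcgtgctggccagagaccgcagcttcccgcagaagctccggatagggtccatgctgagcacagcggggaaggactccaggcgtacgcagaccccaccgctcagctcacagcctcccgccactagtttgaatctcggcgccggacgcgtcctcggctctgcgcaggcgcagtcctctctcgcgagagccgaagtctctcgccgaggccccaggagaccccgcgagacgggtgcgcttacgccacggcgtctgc
MRPL58: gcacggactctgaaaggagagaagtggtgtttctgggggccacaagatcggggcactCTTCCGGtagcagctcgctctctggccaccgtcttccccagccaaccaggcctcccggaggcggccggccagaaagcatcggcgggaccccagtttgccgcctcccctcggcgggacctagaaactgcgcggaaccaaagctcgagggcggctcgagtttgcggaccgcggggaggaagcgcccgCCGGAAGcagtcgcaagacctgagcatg
In MRPL52 an NRF1 core starts 175 bases before the start site, YY1 cores start 98 and 64 bases before it, and an ETS core starts 5 bases before it. MRPL33 has 1 ETS core, 8 bases before its start, and MRPL58 has ETS cores 193 and 8 bases before its start. MRPS2 and MRPL57 hold no exact match to any of the 3 cores in these windows. Only these exact letters were searched, so binding sites with other letters would be missed. The windows of 300 bases (50 of them after the start) held 20 CpG in MRPL52, 19 in MRPL33, 34 in MRPS2, 35 in MRPL57 and 27 in MRPL58. Methylation was not measured in these libraries.

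RefSeq windows matched 69 of the 78 genes. The ETS core was present in 42.0% of them, against 13.2% of the 17390 genes of the table with a window and 21.5% of the 8081 protein-coding genes with a window and a mean of at least 1 FPKM. The YY1 core was present in 29.0%, against 3.67% and 6.14%. The NRF1 core was present in 8.70%, against 4.07% and 6.15%. At least 1 of the 3 was found in 60.9% of the windows, against 19.0% and 30.3%. The median window held 24 CpG, against 21 over all matched genes and 27 over the expressed protein-coding ones. Matches that overlap each other were counted for each motif, and a match describes letters only. Sites that differ from the core in any base were not counted. Among genes with a window, an ETS core was present in 2 of 2 that rose, 3 of 6 that fell and 23 of 58 that were not called. The YY1 core was present in 1 of 2, 0 of 6 and 16 of 58 respectively.

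Nearly all of the 78 genes were expressed, at levels that spanned 29.7-fold among the 75 with a mean of at least 1 FPKM. The highest mean was that of MRPL45, which anchors the ribosome to the inner membrane, at 71.0 ± 2.50 FPKM (SD, n = 4) in the controls and 70.0 ± 5.31 FPKM (SD, n = 4) in the DNMT3A libraries. It was followed by the large-subunit genes MRPL14 (mean of all libraries 63.8 FPKM), MRPL18 (63.5 FPKM) and MRPL37 (62.6 FPKM) and the small-subunit gene MRPS35 (59.4 FPKM). The order of these 5 was not resolved, since their ranges over libraries overlapped. MRPS18C was the lowest of the tested genes, at 2.37 FPKM. These ranks depend on the deposited length. MRPL42, of 16393 bases, ranked 64 with 1653 to 2365 reads a library, against 1939 to 2209 reads for MRPL45, of 1705 bases. In the controls the median level was 17.8 FPKM for the tested small-subunit genes and 19.4 FPKM for the tested large-subunit genes, with quartiles of 8.25 and 26.2 FPKM and of 10.7 and 24.6 FPKM. The interquartile ranges of the 2 subunits' levels thus overlapped.

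**Figure D1:**
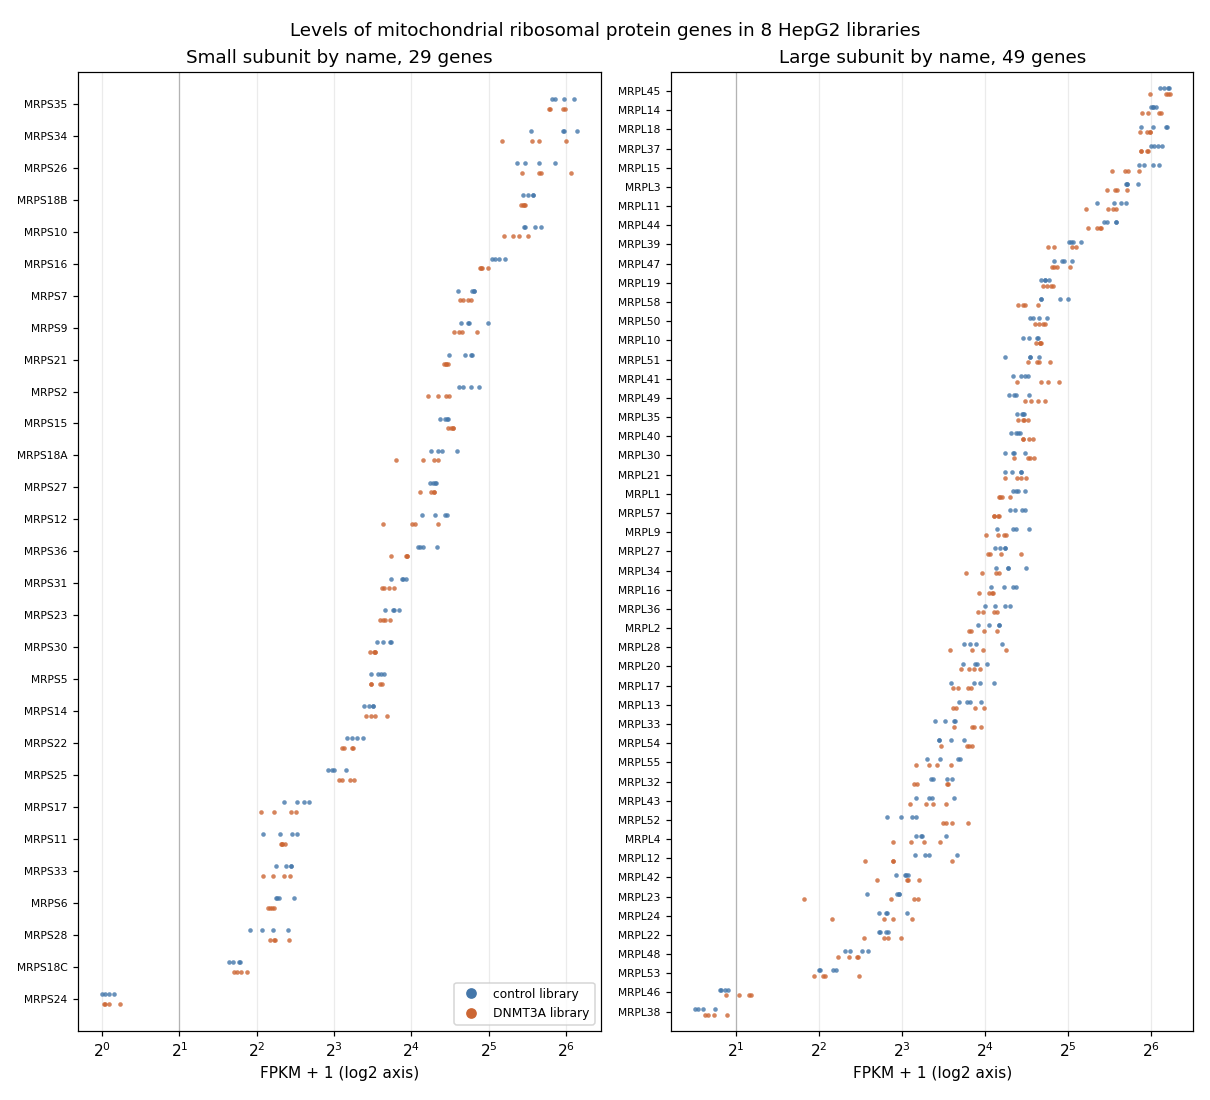
Level of each of the 78 genes in each library (FPKM + 1, log2 axis), ordered by mean level within the small and the large subunit; blue points are control libraries, orange points DNMT3A libraries, and the grey line marks 1 FPKM. Levels run from MRPS24 near 0 to MRPL45 at 70.5 FPKM, and the 2 groups lie close together for most genes.

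The 3 genes below the filter were MRPL46, MRPL38 and MRPS24. MRPL46 was at 0.830, 0.876, 0.766 and 0.751 FPKM in the controls and 0.837, 1.06, 1.23 and 1.26 FPKM in the DNMT3A libraries, from 78 to 143 reads a library, and the groups overlapped. MRPL38 was at 0.419 to 0.682 FPKM in the controls and 0.547 to 0.850 FPKM in the DNMT3A libraries. MRPS24 had 0 to 8 reads in a library. In the GENCODE 29 annotation a readthrough gene, URGCP-MRPS24, spans MRPS24 and was itself listed at 0 in every library, and 41.1% of the exon bases of MRPL38 are covered by exons of other genes. How reads in shared exons were counted is not given in the sources used here, so a low value in these genes is not shown to be a low RNA level. Exons of another gene overlap those of 41 of the 78, and cover over 25% of the exon bases in 10, with MRPL12 the most at 68.2%. No strand-marking step is described in the protocol.

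Between the groups, 8 of the 75 tested genes fell and 2 rose. The share that fell, 10.7%, was near the background of 10.6% of all tested genes, and the share that rose, 2.67%, stood against 9.93%. By ranges, for 11 of 75 all DNMT3A libraries lay below all controls, against 13% of all tested genes, and for 2 they lay above, against 12.1%. The count of genes that fell depended on single libraries: it was 3 without control library 1, 4 without control 2, 2 without control 3, 3 without DNMT3A library 1 and 3 without DNMT3A library 3, and 6 to 10 without each of the others. In those 5 runs the share of all tested genes called lower was also below 10.6%, at 7.30%, 6.61%, 6.36%, 7.76% and 7.16%. Without each of the others it was 8.93% to 10.7%. The count of those that rose was 1 without control 2, control 3, DNMT3A 2 or DNMT3A 3. The share of all tested genes called higher in these runs was 6.74%, 6.62%, 10.3% and 6.76%. By gene, the call held in 20 of 20 alternative analyses for MRPS2, 17 for MRPS36, 13 for MRPL58, 12 for MRPL33, 10 each for MRPL15 and MRPS16 and 7 each for MRPL1 and MRPS21, and in 19 of the 19 that include them for MRPL57 and MRPL52. Changes were small. The median size of the fold change was 0.12 in log2, against 0.14 over all tested genes, and 6 of the 75 reached 0.3.

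The fold changes leaned to the negative side. Of the 75, 54 (72.0%) had a negative fold change, against 52.4% of all tested genes, and the median was -0.089, against -0.011. The summed level of all 78 was 1744, 1721, 1694 and 1548 FPKM in control libraries 1 to 4 and 1548, 1608, 1615 and 1551 FPKM in DNMT3A libraries 1 to 4. Control 4 thus lay with the DNMT3A libraries, and the ranges of the groups overlapped. The median deviation of the 75 genes from their control mean was 0.059, 0.027, 0.002 and -0.101 in controls 1 to 4 and -0.114, -0.039, -0.046 and -0.088 in DNMT3A libraries 1 to 4, on the log2 scale. No p is given for these summaries, since the genes of a set are not replicates. In bulk RNA, fewer transcripts per cell and fewer cells that carry them cannot be told apart.

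**Figure D2:**
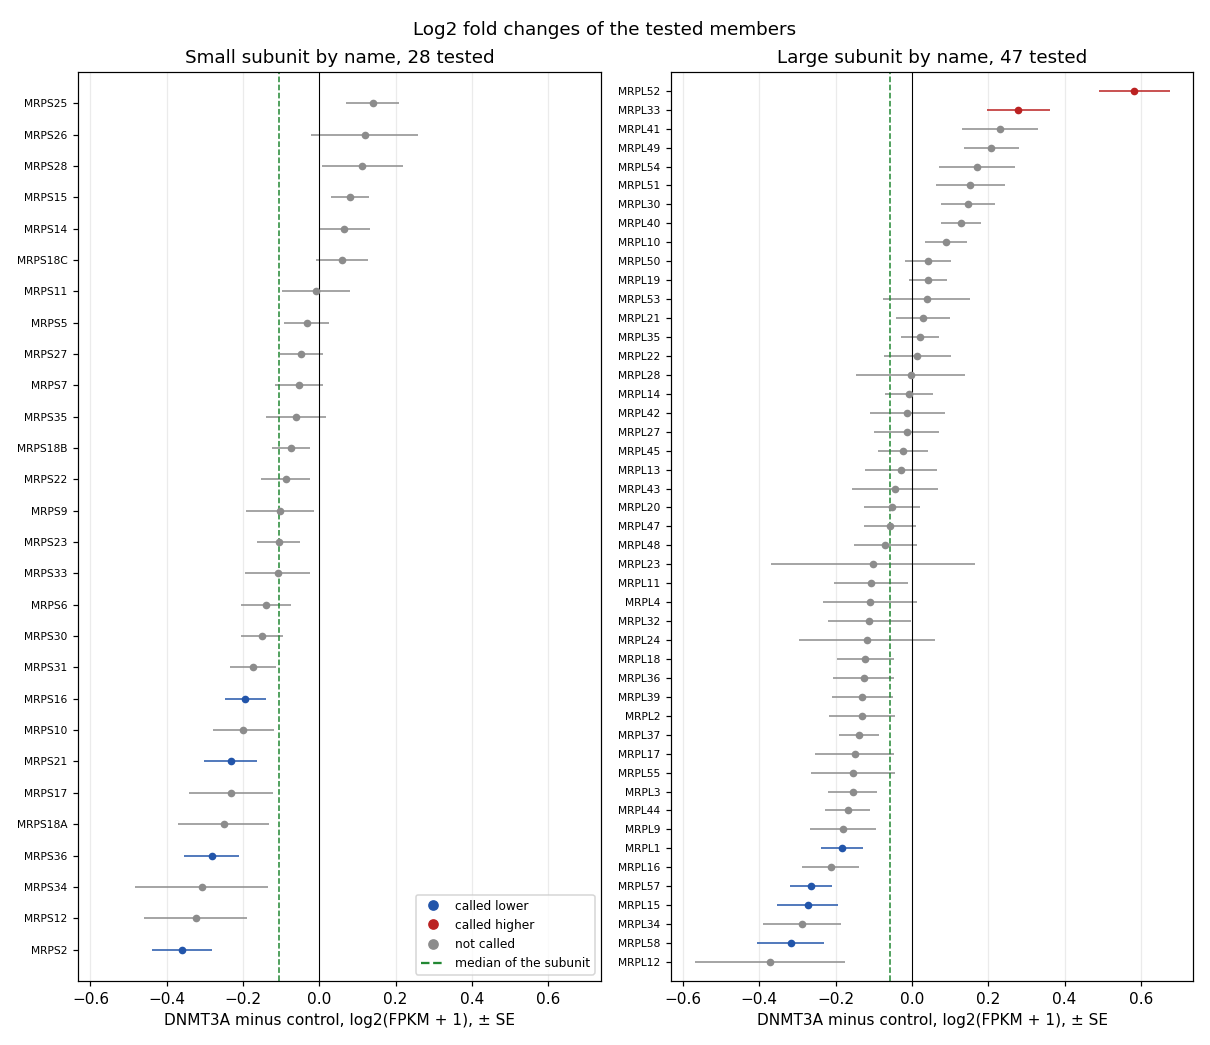
Log2 fold change (DNMT3A minus control, log2(FPKM + 1)) ± SE of each tested gene, ordered within the small (28 genes) and the large subunit (47 genes); blue marks genes called lower, red genes called higher and grey the rest, and the dashed green line is the median of the subunit. Most points lie left of 0, and MRPL52 stands apart on the right at 0.58.

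Among small-subunit genes, 4 of 28 fell (14.3%, against 10.6% of all tested genes) and 0 rose (against 9.93%). MRPS2, a counterpart of bacterial protein S2, had the lowest adjusted p of the 4. Its level (ENSG00000122140, hg38 chromosome 9, 135499984 to 135504673, plus strand) was 28.5, 24.4, 26.4 and 23.6 FPKM in controls 1 to 4 and 19.3, 21.5, 20.9 and 17.7 FPKM in DNMT3A libraries 1 to 4. All 4 DNMT3A libraries lay below all 4 controls, with a log2 fold change of -0.36 (SE 0.079, limma adjusted p = 0.0121). Of the exon bases of MRPS2, 14.4% are shared with AL161452.1 and C9orf116.

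MRPS36 carries a small-subunit name, but its product is now known as a component of the 2-oxoglutarate dehydrogenase complex of the tricarboxylic acid cycle. Its level was 16.8, 16.0, 19.2 and 16.4 FPKM in the controls and 14.3, 12.4, 14.4 and 14.3 FPKM in the DNMT3A libraries. The groups did not overlap, and the log2 fold change was -0.28 (SE 0.072, limma adjusted p = 0.0232). The call was lost without control 3 (limma adjusted p = 0.0635).

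MRPS16 and MRPS21, both counterparts of bacterial proteins, fell by less. MRPS21 was at 26.6, 26.3, 24.9 and 21.4 FPKM in the controls and 20.9, 21.2, 20.5 and 20.9 FPKM in the DNMT3A libraries (log2 -0.23, limma adjusted p = 0.0415). Control 4 lay only just above the highest DNMT3A library, and leaving out any library but control 4 ended the call (limma adjusted p 0.0568 to 0.11). MRPS16 was at 36.2, 32.9, 34.2 and 32.0 FPKM in the controls and 28.7, 30.9, 29.1 and 29.0 FPKM in the DNMT3A libraries (log2 -0.19, limma adjusted p = 0.0346). The groups did not overlap, and leaving out any library but control 4 or DNMT3A 2 ended the call (0.0559 to 0.0936).

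The other small-subunit genes did not pass. MRPS12, a counterpart of a bacterial protein of the decoding site, had a log2 fold change of -0.32 (limma adjusted p = 0.118), and MRPS34 one of -0.31 (limma adjusted p = 0.235). Their DNMT3A libraries were uneven: MRPS34 was at 49.3, 63.3, 46.3 and 35.0 FPKM there, against 45.6 to 69.8 FPKM in the controls. MRPS30 (10.8 to 12.3 FPKM in the controls, 10.03 to 10.6 FPKM in the DNMT3A libraries) and MRPS6 (3.74 to 4.57 and 3.42 to 3.65 FPKM) did not overlap between groups but were not called. The most positive fold change of the subunit was that of MRPS25, at 0.14 (limma adjusted p = 0.183). MRPS26 was at 40.2 to 56.9 FPKM in the controls and 42.0 to 65.8 FPKM in the DNMT3A libraries, and the groups overlapped.

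Among large-subunit genes, 4 of 47 fell (8.51%, against 10.6% of all tested genes) and 2 rose (4.26%, against 9.93%). MRPL57, a protein particular to mitochondrial ribosomes, was at 21.3, 20.8, 19.5 and 18.7 FPKM in the controls and 16.2, 16.2, 17.0 and 16.8 FPKM in the DNMT3A libraries. The groups did not overlap, and the log2 fold change was -0.26 (SE 0.055, limma adjusted p = 0.00985). MRPL57 lies on hg38 chromosome 13, 21176645 to 21179084, plus strand, a chromosome on which 66 of 199 tested genes fell and 9 rose (median log2 -0.15). Of the 10 tested genes within 1 Mb of it, 3 fell and 1 rose, with a median log2 of -0.16. MRPS31, the other member on this chromosome, had a log2 fold change of -0.17 (limma adjusted p = 0.073).

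MRPL58 is a peptidyl-tRNA hydrolase built into the large subunit that releases chains from stalled ribosomes. Its level was 30.9, 24.5, 29.0 and 24.5 FPKM in the controls and 20.1, 20.9, 21.3 and 23.9 FPKM in the DNMT3A libraries. The groups did not overlap, though DNMT3A 4 lay close to controls 2 and 4, and the log2 fold change was -0.32 (SE 0.087, limma adjusted p = 0.0307). Leaving out control 1 or 3 or DNMT3A 1, 2 or 3 ended the call (0.0567 to 0.0874).

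MRPL15 and MRPL1 are counterparts of bacterial proteins, MRPL1 of the one that forms the stalk beside the exit site of tRNA. MRPL15 was at 59.1, 67.3, 64.0 and 56.7 FPKM in the controls and 50.3, 45.2, 51.6 and 56.7 FPKM in the DNMT3A libraries (log2 -0.27, limma adjusted p = 0.0384). It was the only gene among the 8 that fell whose groups overlapped, at control 4 and DNMT3A 4. MRPL1 was at 20.1, 21.3, 19.7 and 19.1 FPKM in the controls and 17.1, 16.9, 17.4 and 18.6 FPKM in the DNMT3A libraries (log2 -0.18, limma adjusted p = 0.0409). For both genes, leaving out any library but control 4 or DNMT3A 4 ended the call (0.06 to 0.11).

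MRPL52, also particular to mitochondrial ribosomes, had the largest change of all 75. It was at 7.70, 8.01, 6.04 and 6.91 FPKM in the controls and 10.3, 12.8, 10.5 and 11.2 FPKM in the DNMT3A libraries, from 307 to 443 and from 576 to 756 reads a library. Every DNMT3A library lay above every control, with a log2 fold change of 0.58 (SE 0.093, limma adjusted p = 0.00309). Its neighbours moved the same way. MRPL52 lies on hg38 chromosome 14, 22829879 to 22835037, plus strand, and of the 22 tested genes within 1 Mb of it 18 rose and 0 fell, with a median log2 of 0.63. The fold change of MRPL52 thus lay near the median of its neighbourhood. The part of its position in the result was not tested.

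MRPL33, the counterpart of a small bacterial protein, rose from 10.4, 9.51, 11.3 and 11.5 FPKM in the controls to 13.3, 13.6, 14.5 and 11.4 FPKM in the DNMT3A libraries (log2 0.28, SE 0.083, limma adjusted p = 0.0409). DNMT3A 4 lay among the controls. Leaving out any library but control 4 or DNMT3A 4 ended the call (0.063 to 0.111). Its neighbours did not move with it: of 29 tested genes within 1 Mb, 1 rose and 2 fell (median log2 -0.0014). Of its exon bases, 21.1% are shared with BABAM2.

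**Figure D3:**
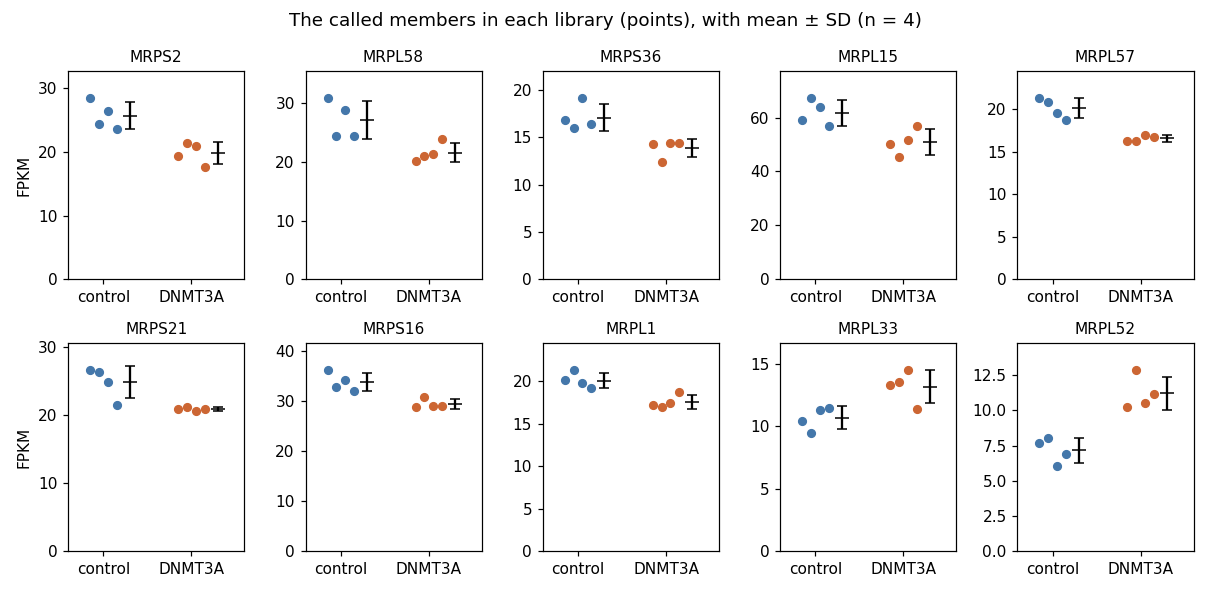
FPKM of the 10 called genes in each library (points; blue control, orange DNMT3A; replicates 1 to 4 from left to right) with the mean ± SD beside them (n = 4), each axis starting at 0. MRPS2, MRPL57 and MRPL52 separate the groups clearly, while MRPL15 and MRPL33 overlap through DNMT3A library 4.

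Other large-subunit genes that separated the groups without being called were MRPL44, related to ribonuclease III (36.7 to 41.2 FPKM in the DNMT3A libraries and 42.1 to 46.7 FPKM in the controls), MRPL37 (57.8 to 61.5 and 62.8 to 68.9 FPKM) and, on the higher side, MRPL40 (20.9 to 22.8 and 18.8 to 20.4 FPKM). MRPL12, a stalk protein that recruits translation factors, had the most negative fold change (-0.37) but a wide error (SE 0.198, limma adjusted p = 0.21). It was at 11.7, 8.70, 9.03 and 7.90 FPKM in the controls and 6.41, 11.1, 6.44 and 4.87 FPKM in the DNMT3A libraries, so 1 DNMT3A library lay among the controls. MRPL49 (log2 0.21, limma adjusted p = 0.0684) and MRPL41 (log2 0.23, limma adjusted p = 0.129) had the largest positive fold changes after MRPL33. Over both subunits, 12 genes had an unadjusted limma p under 0.05 without passing the adjusted threshold. With the called genes counted too, 22 of the 75 had one, beside 4067 of all 11620 tested genes.

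The small-subunit genes had a median log2 fold change of -0.105 and the large-subunit genes one of -0.057, a difference of -0.048. Negative values were found in 22 of 28 small-subunit genes and 32 of 47 large-subunit genes. Library by library, the median deviation of the small-subunit genes minus that of the large-subunit genes was -0.014, 0.023, 0.008 and 0.014 in controls 1 to 4 and -0.028, -0.092, -0.067 and -0.078 in DNMT3A libraries 1 to 4. All 4 DNMT3A libraries lay below all controls, but the difference of the medians was not stable: it was 0.021 without DNMT3A 2, -0.006 without control 4, -0.031 without DNMT3A 3 and -0.072 without DNMT3A 4. MRPS18A and MRPS30 carry small-subunit names but sit in the large subunit in structures of the ribosome, and with both counted as large the difference was -0.026. A difference between the subunits was therefore not established at this size.

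Origin was described in the same way. The classes were assigned gene by gene and are not clear-cut. MRPS18A and MRPS18C were counted with the bacterial counterparts, but MRPS18B and the hydrolase MRPL58 as particular to mitochondria. Of 46 tested genes counted as having bacterial counterparts, 5 fell and 1 rose (10.9% and 2.17%), with a median log2 of -0.109. Of 28 tested genes counted as particular to mitochondria, 2 fell and 1 rose (7.14% and 3.57%), with a median of -0.054. Over all tested genes 10.6% fell and 9.93% rose. The large-subunit genes particular to mitochondria had a median of -0.018 and included both MRPL57, which fell, and MRPL52, which rose. None of the 10 tested small-subunit genes particular to mitochondria was called by limma, 1 had an unadjusted p under 0.05, and 8 had a negative fold change. Among all 11620 tested genes, 4067 had an unadjusted limma p under 0.05 and 52.4% had a negative fold change.

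Base composition and length moved with the values in single libraries. Of the tested genes, 10 had a GC content of 60% or more, among them MRPS2, MRPL12, MRPS34, MRPS26 and MRPL41. Their median deviation was 0.214, 0.013, -0.049 and -0.187 in controls 1 to 4 and -0.075, 0.229, -0.128 and -0.379 in DNMT3A libraries 1 to 4. The sign of these medians thus differed between libraries of 1 group. Across the 75 genes the deviation ran with GC content at a Spearman rho of 0.48 in control 1, -0.35 in control 4, 0.50 in DNMT3A 2 and -0.37 in DNMT3A 4, and across all tested genes at 0.39, -0.10, 0.27 and -0.35. These are correlations across genes that share a library, and genes are not replicates. The 75 genes were short, with a median gene length of 2464 bases against 4583.5 over all tested genes. Longer ones had higher fold changes (rho 0.27 over the 75, 0.14 over all tested genes). With a correction of each library for length the counts were 3 lower and 3 higher, beside 10.5% and 10.1% of all tested genes. With one for length and GC content together they were 11 lower and 4 higher, beside 14.2% and 12.8% of all tested genes.

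**Figure D4:**
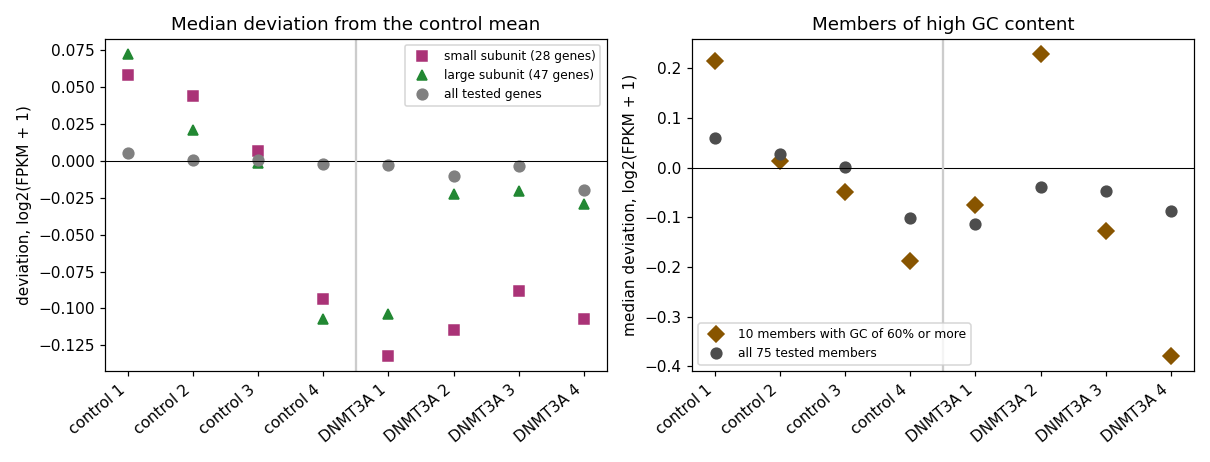
Median deviation from the control mean, log2(FPKM + 1), in each of the 8 libraries: left, the small-subunit genes (squares), the large-subunit genes (triangles) and all tested genes (circles); right, the 10 genes of high GC content (diamonds) and all 75 (circles). Control 4 lies with the DNMT3A libraries for the small subunit and is the lowest library for the large subunit (-0.107). The high-GC genes differ most between libraries 2 and 4 of the DNMT3A group.

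Many of these genes share a start region with a gene on the other strand. A protein-coding gene starts within 1 kb on the opposite strand for 29 of the 78, and in 20 pairs both genes were tested. The fold changes had the same sign in 13 of the 20. MRPL57 starts 43 bases from SKA3, a kinetochore gene, which had a log2 fold change of -0.17 (limma adjusted p = 0.244). MRPS18B starts 903 bases from PPP1R10, a regulator of protein phosphatase, which fell by 0.51 on the log2 scale (limma adjusted p = 0.000477), while MRPS18B itself was at 42.5 to 46.5 FPKM in the controls and 41.7 to 43.4 FPKM in the DNMT3A libraries. MRPL21 starts 7 bases from the helicase gene IGHMBP2, which rose by 0.22 (limma adjusted p = 0.0326), with MRPL21 at a log2 of 0.03. The call of IGHMBP2 was lost without any single library but control 3 (0.0506 to 0.0816). MRPS11 and MRPL46 start 34 bases apart and thus share a start region within the ribosome's own gene set.

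Pseudogenes of these genes were assigned few of the reads. Of 75 pseudogenes in the table, 53 were at 0 in every library and 1, MRPL45P2, passed the filter. Together they held 0.193% of the reads of genes and pseudogenes combined. How reads that match both a gene and a pseudogene were counted is not given. Whether such reads altered the levels of the genes was not tested.

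Genes that work with the ribosome were grouped by role. None of 5 subunits with other names (DAP3, PTCD3, AURKAIP1, CHCHD1 and GADD45GIP1) was called by limma. An unadjusted limma p under 0.05 was found for 1 of them, beside 4067 of all 11620 tested genes. The GTPase DAP3, singled out after its values were seen, was at 18.7 to 18.9 FPKM in the controls and 19.6 to 21.5 FPKM in the DNMT3A libraries (log2 0.13, limma adjusted p = 0.0919). Of 17 tested translation factors, 4 fell (23.5%, against 10.6% of all tested genes) and 1 rose (5.88%, against 9.93%). PDF, which removes the formyl group from new chains, fell from 12.1 ± 1.91 to 8.20 ± 0.937 FPKM (SD, n = 4; log2 -0.50, limma adjusted p = 0.0138). GUF1, a GTPase related to bacterial LepA, fell by 0.30 on the log2 scale (limma adjusted p = 0.00941). MTFMT, which formylates the initiator tRNA, and the elongation factor GFM1 also fell, by 0.21 and 0.20 on the log2 scale, and are named after their values were seen. Both calls were lost without at least 5 of the single libraries. OXA1L, which inserts new chains into the inner membrane, rose from 45.8 ± 2.08 to 68.7 ± 2.79 FPKM (SD, n = 4; log2 0.57, limma adjusted p = 0.000208). It lies on chromosome 14 at 22.8 Mb, the neighbourhood of MRPL52. The most abundant uncalled factors were the elongation factor TUFM (log2 -0.05) and the RNA-binding protein LRPPRC (log2 -0.08).

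Of 30 tested assembly factors, 2 fell and 2 rose (6.67% each way, against 10.6% and 9.93% of all tested genes). The helicase DDX28 fell from 7.78 ± 0.453 to 4.67 ± 0.579 FPKM (SD, n = 4; log2 -0.64, limma adjusted p = 0.000984). FASTKD2, an RNA-binding protein of mitochondrial RNA granules, fell by 0.25 on the log2 scale (limma adjusted p = 0.0136) and is named after its values were seen. YBEY, an endoribonuclease, rose from 1.26 ± 0.166 to 1.97 ± 0.169 FPKM (SD, n = 4; log2 0.40, limma adjusted p = 0.00999). METTL17 rose from 9.77 ± 0.741 to 12.8 ± 1.03 FPKM (SD, n = 4; log2 0.36, limma adjusted p = 0.00895), and it too lies on chromosome 14, at 21.0 Mb. The calls of DDX28, FASTKD2, YBEY and METTL17 held without each single library.

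Of 11 genes of mitochondrial DNA replication and transcription, 1 fell (9.09%, against 10.6% of all tested genes) and 0 rose. SSBP1, the single-stranded DNA binding protein, fell from 11.2 ± 0.212 to 9.01 ± 0.449 FPKM (SD, n = 4; log2 -0.29, limma adjusted p = 0.0055). TFAM (log2 -0.01) and the RNA polymerase POLRMT (log2 -0.15) were not called. Of 11 tested regulators of mitochondrial gene expression, TFEB (log2 -0.41, limma adjusted p = 0.0346) and YY1 (log2 -0.17, limma adjusted p = 0.0477) fell (18.2%, against 10.6% of all tested genes) and 0 rose. The call of YY1 was lost without each of the 8 libraries in turn and that of TFEB without 6 of them. Of the 13 protein-coding transcripts of mitochondrial DNA, which this ribosome translates, 2 fell (15.4%) and 0 rose. MT-ND1 fell from 4325 ± 424 to 2897 ± 275 FPKM (SD, n = 4; log2 -0.58, limma adjusted p = 0.00379) and MT-ND3 from 4580 ± 293 to 3620 ± 187 FPKM (SD, n = 4; log2 -0.34, limma adjusted p = 0.0131). Both calls held without each single library. Without the filter on low values they were lost (limma adjusted p 0.277 for MT-ND1 and 0.614 for MT-ND3), as was that of MT-ND3 with quantile normalization (0.314).

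Negative fold changes were also in the majority in the other sets. They made up 76.5% of the translation factors (median log2 -0.056), 60% of the assembly factors (-0.029), 54.5% of the genes of mitochondrial DNA replication and transcription (-0.0095), 72.7% of the regulators (-0.142) and 76.9% of the mitochondrial transcripts (-0.147). The groups overlapped for the mitochondrial transcripts. Their median deviation was -0.213, -0.056, 0.165 and 0.111 in controls 1 to 4 and -0.161, -0.223, -0.203 and 0.006 in DNMT3A libraries 1 to 4. Of 82 tested cytosolic ribosomal protein genes, 10 fell (12.2%) and 3 rose (3.66%), with 75.6% negative and a median log2 of -0.109. Of 76 tested nuclear genes of the respiratory chain, 9 fell (11.8%) and 0 rose, with 84.2% negative and a median of -0.099. Over all tested genes 10.6% fell, 9.93% rose and 52.4% had a negative fold change. Control 4 lay with the DNMT3A libraries in the cytosolic ribosomal and respiratory chain sets too, with median deviations of -0.112 and -0.086, against 0.144 and 0.062 in control 1. In the cytosolic ribosomal set control 3, at -0.050, also lay within the range of the DNMT3A libraries (-0.212 to -0.033). In the mitochondrial transcripts control 4 did not lie with the DNMT3A libraries. The largest changes among the called were those of RPS23 (log2 1.09), RPS28 (-0.61) and RPL30 (0.54) in the first set and of UQCR10 (-0.47), UQCRQ (-0.43) and ATP5F1D (-0.42) in the second. RPS23 was uneven in the DNMT3A libraries, at 20.1, 29.8, 38.1 and 57.5 FPKM, and the call of RPS28 was lost without 5 of the single libraries. No difference between the mitochondrial ribosome and these sets was tested.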

How the data were processed

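RNA was measured in 4 control and 4 DNMT3A libraries of HepG2 cells. Messenger RNA was captured on poly-T beads and primed with random hexamers, per the labels' protocols, and HISAT2 2.0.5 and hg38 are named in the submitters' processing notes. How reads were assigned to genes is not given in the sources used here. Each deposited value is an FPKM, with a column for each library, per the file headers. It depends on the library total and on the deposited gene length, so a few abundant genes can shift all others. Coordinates of 58735 of 58735 genes equalled those of GENCODE 29. FPKM times length gave whole reads for 100% of values (tolerance 0.01), 15911019 to 17677093 a library, which were used for depth and for an added test with voom, limma's model for counts.

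Values were compared as log2(FPKM + 1) with limma 3.58.1 (R 4.3.3, trend on the mean level) over genes with a mean of at least 1 FPKM, which left 11620, and p-values were adjusted over all of them. The test was checked on simulated data with independent noise for each gene. These data held no shifts shared across a library, such as those with GC content or length, so the check does not cover them. For DNMT3A an exact permutation test was run as well (two-sided p = 0.0286, the smallest that 70 assignments can give; limma log2 1.09, adjusted p = 0.000122). Groups and replicate numbers came from the sample titles. Any of the 78 genes could be named, and from other lists up to 3 called genes with the largest change and the 2 others with the highest mean. The genes, the lists and the tests were chosen with earlier results of these data known. Alternatives were another pseudocount, the replicate number as a block, no filter, median-ratio and quantile scaling, no trend, array weights, protein-coding genes only, leaving out chromosomes 13 and 14, a length spline, voom, the subunit assignment and leaving out each library. A length and GC spline, and leaving MRPS36 out of the subunit comparison, were chosen after seeing the data. Promoter windows are from RefSeq, 1 per gene.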

Additional observations from a re-analysis of the deposited data

Results flagged for a closer look

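Within the groups of 4 libraries, 156 sets of log2(FPKM + 1) values (78 genes in 2 groups) were examined for a single library far from the other 3. A gap beyond Dixon's 95% critical value on that scale, not on the FPKM printed here, was taken as far. In 6 sets a library stood apart, and chance alone gives about 1 in 20. MRPL3, a core protein of the large subunit, was at 56.2 FPKM in control 3, against 50.8 to 51.5 FPKM in the other controls. MRPS7 was at 23.4 FPKM in control 4, against 26.5 to 27.2 FPKM, and MRPL23, a gene of high GC content, was at 4.98 FPKM in the same library, against 6.65 to 6.80 FPKM. MRPS36, which was called lower, was at 12.4 FPKM in DNMT3A library 2, against 14.3 to 14.4 FPKM in the other DNMT3A libraries. MRPS30 was at 10.03 FPKM in the same library, against 10.5 to 10.6 FPKM. MRPL54, also of high GC content, was at 10.1 FPKM in DNMT3A library 1, against 12.7 to 13.4 FPKM.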

How the results depend on the processing

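Across the 20 alternatives, direction was followed for the 10 called genes, 14 uncalled ones of the 75 and called genes outside the 75. It held for each gene followed. The 14 had an unadjusted limma p under 0.05 or a fold change of at least 0.3 in size. A held direction was thus likely from the start, and the rest of the 75 were not followed. Of the 10 called genes, 3 (MRPS2, MRPL57 and MRPL52) kept their call in each alternative run on them. The median log2 fold change of the 75 genes stayed negative, from -0.115 to -0.048, and DNMT3A stayed called. The count of genes called lower (8) was 3 with no filter, 4 with quantile normalization, 15 with array weights, 3 with the length spline and 5 with voom, and 2 to 10 with each library left out. The count called higher (2) was 1 with no filter, 4 with array weights, 1 without chromosomes 13 and 14 and 4 with the length and GC spline, and 1 to 2 with each library left out. Over all tested genes the share called lower was 16.6% with array weights, 2.58% with no filter and 10.5% with the length spline. It was 9.56% with quantile normalization, 10.1% with voom and 6.36% to 10.7% with each library left out. The share called higher was 2.66% with no filter, 15.7% with array weights and 9.04% without chromosomes 13 and 14. It was 12.8% with the length and GC spline and 6.62% to 10.3% with each library left out. The small-subunit median minus the large-subunit median was -0.078 with the length and GC spline and -0.019 with MRPS18A and MRPS30 counted as large and MRPS36 left out (-0.026 with the first change alone), and -0.072 to 0.021 with each library left out. The cause of these shifts was not tested. Same-numbered libraries deviated together little or not at all (correlations 0.159, -0.0816, -0.0248 and 0.0978). Of the controls, only control 4 correlated best with the DNMT3A library of its own number. Whether a number marks a shared culture or day is not stated, so the samples were not paired in the main test. With the replicate block 5 genes were called lower and 1 higher, beside 8.33% and 7.86% of all tested genes. Genes with few reads, such as MRPS24 at 0 to 8 reads, were too low to compare at this depth.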
